A study of Homo sapiens with 19 samples.

Results

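The mRNAs of CAPRIN1, USP10, UBAP2L, TIA1, TIAL1, ATXN2, ATXN2L, PABPC1 and YBX1, which encode proteins of the stress granule (SG) scaffold, were followed through every measurement made in SH-SY5Y cells. These 9 genes were picked by name, with earlier results of these data known, and were found as 9 of the 19942 genes in the gene tables and as 202 of the 256980 transcripts in the transcript table. SGs are cytoplasmic condensates of stalled mRNAs and RNA-binding proteins that form when translation initiation is blocked. G3BP1 and G3BP2 nucleate them by binding RNA that has left the polysomes, and partner proteins help or hinder this step. The mRNAs described here encode those partners, so that what was measured is whether the messages for SG proteins were themselves bound by G3BPs, recovered with SGs or altered by stress.

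SH-SY5Y is a human neuroblastoma line, and all libraries came from this single line. Sodium arsenite (AS), an oxidative stressor, was the only stress used. Poly-A RNA-seq covered cells given control siRNA (siCtrl), siRNA against G3BP1 (siG3BP1) or siRNA against G3BP2 (siG3BP2). Poly-A RNA-seq also covered AS-treated cells as lysate cleared by low-speed centrifugation (Total) and as SG cores purified from the same supernatant (SG), the cores being pulled down with an anti-G3BP1 antibody. rRNA-depleted RNA-seq covered untreated and AS-treated cells. Each of these 7 RNA-seq conditions was 1 library, so their differences have no replicate check and no p-value is given for them. In eCLIP, UV light crosslinks RNA to the protein it touches, and the protein is then immunoprecipitated with the bound fragments. G3BP1 and G3BP2 were each precipitated from untreated and from AS-treated cells, with 2 libraries per group. Nothing states that the 2 libraries came from separate cultures, so their spread may be technical. The labels give AS as 500 μM for 1 h in the rRNA-depleted experiment and as 50 mM for 1 h in every other sample, those titled as controls and the siRNA samples included. The study's methods give 500 μM for 1 h as the one AS treatment and describe the knockdown without AS, so the 50 mM in the labels disagrees with them.

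The numbers behind the eCLIP values, recovered from rounded logs, summed to between about 4268911 and 26179736 per library. For the rRNA-depleted libraries, totals inferred from the step between the deposited values were about 13291958 reads without AS and 11281587 with AS. The TPM table gives no depth. Of 10 neuroblastoma markers, 9 were above 10 TPM in every TPM library. Of 13 markers of other cell types, at most 3 were above 1 TPM in any library. The siRNAs lowered their targets. G3BP1 was at 18.7 TPM in siCtrl, 6.0 in siG3BP1 and 16.5 in siG3BP2, and G3BP2 was at 38.1, 39.4 and 11.4 TPM.

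The 9 genes differ in size and in the sequences that the study describes as enriched at G3BP sites. On GRCh38, ATXN2 (ENSG00000204842) has the longest span at 156192 bases (chr12:111443485-111599676, minus strand). USP10 (ENSG00000103194) spans 79937 bases (chr16:84699986-84779922, plus strand). UBAP2L (ENSG00000143569) and CAPRIN1 (ENSG00000135387) span 51332 bases (chr1:154220179-154271510, plus strand) and 50880 bases (chr11:34051731-34102610, plus strand). TIA1 (ENSG00000116001) spans 39217 bases (chr2:70209444-70248660, minus strand) and TIAL1 (ENSG00000151923) 25228 bases (chr10:119571802-119597029, minus strand). PABPC1 (ENSG00000070756) spans 36994 bases. YBX1 (ENSG00000065978) spans 21388 bases (chr1:42682418-42703805, plus strand), and ATXN2L (ENSG00000168488) has the shortest span at 14239 bases (chr16:28822999-28837237, plus strand).

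The palindromic G3BP motif was searched as CCAGCCTGG and CCAGGCTGG, which are reverse complements of each other, so that both strands are covered. It occurred 373 times within the spans of the 9 genes, and 361 of these sites were intronic. Another 10 lay in exons of transcripts other than the canonical one, and 2 lay in coding exons of a canonical transcript. Both coding sites were in ATXN2. Of the canonical transcripts of all genes, 27.99% held the motif at least once, and of all gene spans 87.4% held it, so its presence is common. The same letters are also part of the Alu repeat, which is widespread in introns. ATXN2 held 155 of the 373 sites and YBX1 held 3, and per kb of span TIA1 was densest at 1.02 sites and YBX1 sparsest at 0.14, against a median of 0.40 over all genes. The 2 coding sites of ATXN2, the gene with the highest eCLIP values, are given here on the gene's own strand, with the motif in capitals, since they are the ones in a canonical transcript.
ATXN2 coding exon (chr12:111470157-111470185, minus strand): caacacacgcCCAGCCTGGtttagtatct
ATXN2 coding exon (chr12:111518325-111518353, minus strand): cgcgtatgggCCAGCCTGGatcgggctcc

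A match is a match of letters, the canonical transcripts of the other 8 genes held none, and positions of eCLIP signal within genes were not analysed here.

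In steady state the 9 mRNAs covered a wide range. TPM is already per length, so levels can be compared between genes. In siCtrl, YBX1, a cold-shock domain protein that packages mRNA, was the highest at 1149 TPM. PABPC1, the main cytoplasmic poly(A)-binding protein, followed at 569 TPM. UBAP2L, an RGG-domain protein that promotes SG assembly, was at 115 TPM. ATXN2L and CAPRIN1 were at 110.2 and 108 TPM. USP10, a deubiquitinase that binds G3BP and restrains SG assembly, was at 46.0 TPM. TIAL1 and ATXN2 were at 27.0 and 21.5 TPM, and TIA1 was the lowest at 19.3 TPM. With 1 library, it cannot be said which neighbours in this order differ beyond their spread.

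**Figure D1:**
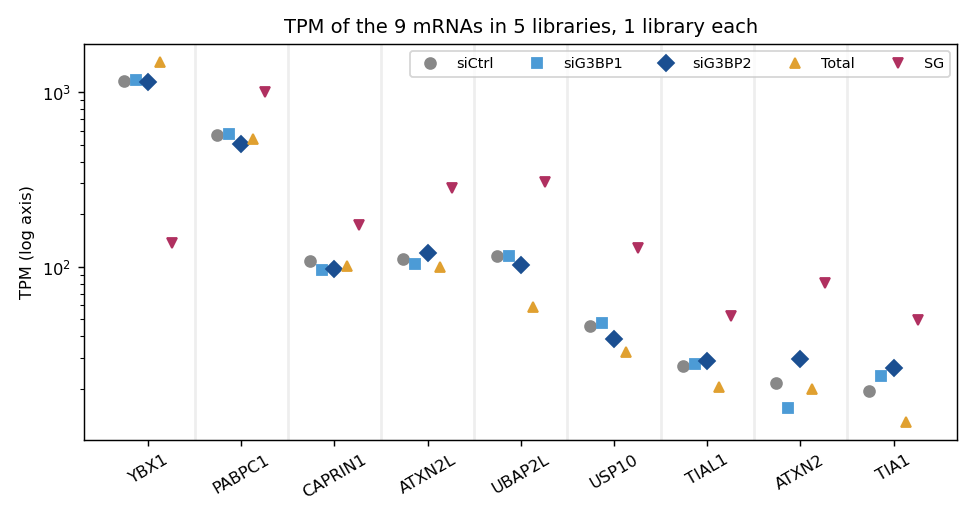
TPM of the 9 mRNAs on a log axis, with 1 point per library (siCtrl, siG3BP1, siG3BP2, Total and SG) and genes ordered by their level in Total. In 8 genes the SG point is the highest of the 5, and in YBX1 it is the lowest, at 137 TPM against 1139 to 1485 TPM elsewhere.

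The comparison of SG with Total addresses which mRNAs were recovered with SG cores. After AS, 8 of the 9 mRNAs had a higher TPM in SG than in Total and YBX1 alone was lower. A gene was called enriched when its fold of TPM + 1 was above 2 with more than 1 TPM in SG, and depleted when it was below 0.5 with more than 1 TPM in Total. By this rule 6 of the 9 were enriched, where 62.9% of the 13560 genes tested were, and 1 was depleted, where 9.45% were. The members' share of enriched mRNAs was therefore near that of all genes. Their median log2 fold of 1.48 was also near the 1.51 of all genes.

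UBAP2L had the largest fold. Its TPM was 59.1 in Total and 307 in SG, a log2 fold of 2.36. ATXN2, an Lsm-domain protein that binds poly(A)-binding protein, was at 20.1 TPM in Total and 80.2 in SG, a log2 fold of 1.95. USP10 was at 32.6 and 128 TPM, a log2 fold of 1.94. TIA1, a prion-like protein that binds U-rich RNA and is a classical SG marker, was at 12.97 and 49.5 TPM, a log2 fold of 1.85. These 4 mRNAs lay between the 57.7th and the 67.6th percentile of all genes tested.

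The remaining 2 enriched mRNAs lay below the median of all genes. ATXN2L, the paralog of ATXN2, was at 99.8 TPM in Total and 281 TPM in SG, a log2 fold of 1.48. TIAL1, the paralog of TIA1, was at 20.5 and 52.4 TPM, a log2 fold of 1.31. In both paralog pairs ATXN2 and TIA1 had the larger fold and the lower level in Total.

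PABPC1 and CAPRIN1 fell into neither class. PABPC1 was at 536 TPM in Total and 1006 TPM in SG, a log2 fold of 0.91. By TPM it was the 174th gene in Total and the 19th in SG. CAPRIN1, which binds G3BP1 and favours SG assembly, was at 101 and 174 TPM, a log2 fold of 0.77. Both folds were between 1 and 2, below the threshold and below the shift of most genes. PABPC1 shares sequence with PABPC3 and PABPC4, so reads may have been divided among them.

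YBX1 stood apart from the other 8. It was at 1485 TPM in Total, where it was the 69th most abundant mRNA, and at 137 TPM in SG, where it was the 1150th. Its log2 fold of -3.42 was the 132nd lowest of the 13560 genes, while the other 8 lay between 0.77 and 2.36. YBX1 also had the shortest coding sequence of the 9 at 975 nt. TIAL1 at 1128 nt and TIA1 at 1161 nt came close to it, and both were enriched, at log2 folds of 1.31 and 1.85. Across the 9 genes the log2 fold ordered with coding length (Spearman's rho = 0.75, n = 9). It did so less with the length of the whole transcript (rho = 0.18) and with its GC content (rho = 0.35). With 3'UTR length it ordered in the opposite sense (rho = -0.38). These are descriptions over 9 genes that share the same 2 libraries.

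**Figure D2:**
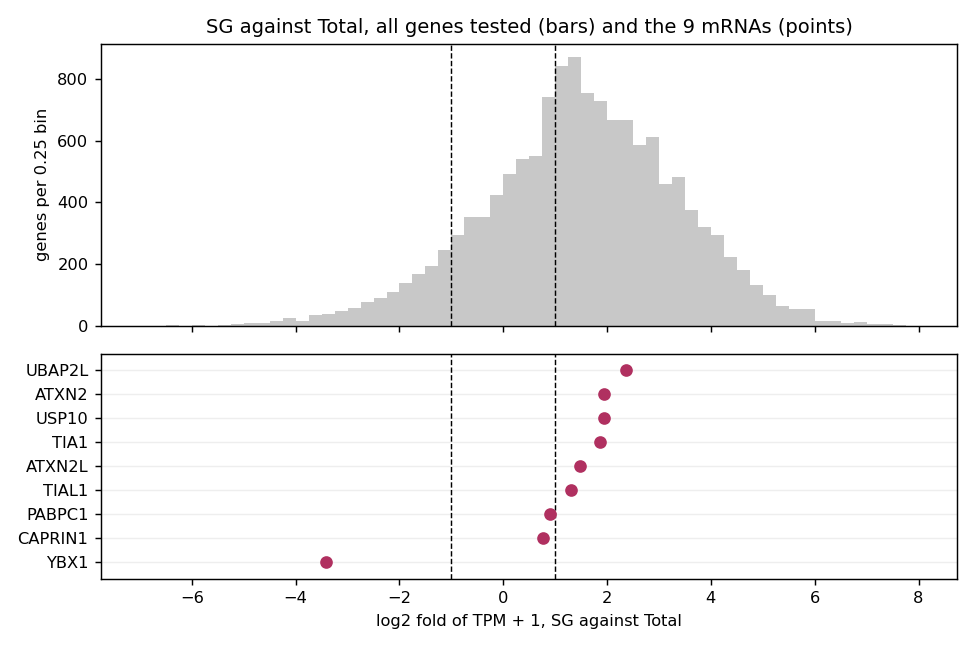
Log2 fold of TPM + 1, SG against Total, for the 13560 genes tested as a histogram (top, genes per bin) and for the 9 mRNAs as points (bottom). Dashed lines mark folds of 2 and 0.5; 6 points lie right of the upper line, PABPC1 and CAPRIN1 between the lines, and YBX1 at -3.42.

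SG values in general were shifted against Total. Among genes above 1 TPM in both libraries the median ratio of SG to Total was 2.78. When every ratio was divided by this median, 0 of the 9 mRNAs were enriched and YBX1 was still depleted. The threshold then sits at 2 times the median gene. On this scale UBAP2L had a log2 fold of 0.89, ATXN2 of 0.50, USP10 of 0.48, TIA1 of 0.43 and ATXN2L of 0.02. CAPRIN1, PABPC1 and TIAL1 turned negative, at -0.69, -0.56 and -0.11, and YBX1 was at -4.88.

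Other SG protein mRNAs and a translation set were read beside the 9. Of 55 further mRNAs for SG proteins, 52 could be tested, 42 were enriched, 2 were depleted, and their median log2 fold was 2.47. PRRC2B was at 4.22 TPM in Total and 710.4 TPM in SG, the largest log2 fold of the list at 7.09. PRRC2C and LARP1 followed at 5.57 and 5.20. PCBP2 at -1.33 and HNRNPA1 at -1.03 were the 2 depleted ones, and the translation initiation helicase EIF4A1 had the next lowest fold at -0.78.

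Of 14 mRNAs for translation factors and related proteins, 1 was enriched and 11 were depleted, with a median log2 fold of -2.29. Among all genes tested 62.9% were enriched and 9.45% depleted, with a median of 1.51. TPT1 and NACA had lower folds than YBX1, at -4.19 and -4.16, and EIF4B was the enriched one at 2.26. EIF4B is also on the list of further SG protein mRNAs. YBX1 therefore had a fold within the range of that list and below that of every other mRNA for an SG protein tested.

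Of 10 listed paralogs, the 2 G3BPs (paralogs of each other) included, 8 could be tested, 6 were enriched and 1 was depleted, with a median log2 fold of 1.83. UBAP2, PABPC4, YBX3, G3BP1 and G3BP2 also belong to the list of further SG protein mRNAs above, so the lists overlap. Over all genes 62.9% were enriched, with a median of 1.51. UBAP2, the paralog of UBAP2L, was at 21.4 TPM in Total and 126 TPM in SG, a log2 fold of 2.50. CAPRIN2 had a log2 fold of 2.42, where CAPRIN1 had 0.77. PABPC4 and PABPC1L had log2 folds of 1.54 and 1.52, where PABPC1 had 0.91. G3BP1 and G3BP2 had log2 folds of 2.12 and 2.31. YBX2 was depleted like YBX1, at 6.16 TPM in Total and 2.14 TPM in SG, a log2 fold of -1.19. PABPC3 was at 1.22 TPM in Total and 0.333 in SG, and PABPC5 and YBX3 stayed under 1 TPM in both.

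The knockdown libraries address whether the 9 mRNAs depended on either G3BP. By the same fold rule, 0 of the 9 were called in siG3BP1 against siCtrl, where 1.12% of genes were higher and 1.98% lower. In siG3BP2 against siCtrl 0 of the 9 were called as well, where 1.23% of genes were higher and 2.89% lower. Both comparisons use the same siCtrl library. The members' median log2 fold was 0.02 in siG3BP1 and -0.01 in siG3BP2, and that of all genes tested was -0.08 and -0.12.

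ATXN2 showed the widest spread of the 9 between the siRNA libraries. It was at 21.5 TPM in siCtrl, 15.6 in siG3BP1 and 29.6 in siG3BP2. The log2 folds against siCtrl were -0.44 and 0.44, neither past the threshold. Set directly against each other, a comparison added after the values were seen, the siG3BP2 library had 1.90 times the ATXN2 level of the siG3BP1 library, at the 98.3rd percentile of all genes tested. It passed a fold of 1.5 but not the fold of 2. No replicate shows whether this exceeds the spread between cultures.

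TIA1 was higher in both knockdown libraries than in siCtrl. It was at 19.3 TPM in siCtrl, 23.6 in siG3BP1 and 26.5 in siG3BP2, log2 folds of 0.28 and 0.44. USP10 was at 46.0, 47.6 and 38.4 TPM, and its log2 fold in siG3BP2 was -0.25. CAPRIN1 was at 108, 95.2 and 97.5 TPM, with log2 folds of -0.18 and -0.14. UBAP2L was at 115, 115 and 102 TPM, ATXN2L at 110.2, 103 and 120.1 TPM, and TIAL1 at 27.0, 27.9 and 28.7 TPM. PABPC1 was at 569, 577 and 505 TPM and YBX1 at 1149, 1175 and 1139 TPM. In these 5 genes the libraries differed from siCtrl by at most 0.17 on the log2 scale.

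Among the 52 further SG protein mRNAs tested, 4 were lower in siG3BP1, where 1.98% of all genes tested were, from 1 library per condition. These were G3BP1 itself at -1.496, the cap-binding protein EIF4E at -1.07, CELF1 at -2.21 and TAF15 at -1.93. In siG3BP2 3 were lower, G3BP2 itself at -1.66, EIF4E at -1.75 and TAF15 at -1.002, and PRRC2A was higher at 1.05. Of all genes tested, 2.89% were lower and 1.23% higher in siG3BP2. Of the paralogs, YBX2 was lower in siG3BP2 at -1.27, from 10.7 to 3.85 TPM.

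The rRNA-depleted libraries address whether AS altered the levels of these mRNAs in whole cells. In these bulk libraries, fewer cells and less RNA per cell cannot be told apart. The deposited value of a transcript behaves as reads per kb, divided by the library total, with a read entered for every transcript it overlaps, so the transcripts of a gene share reads. By a fold of value + 1 past 2 or 0.5, 1 of the 202 member transcripts was higher, where 1.51% of transcripts were, and 0 were lower, where 0.47% were. The transcript that was called was ENST00000481331.1 of ATXN2, outside the rule for naming and named after its value was seen, with 3 reads without AS and 12 with AS.

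Of the canonical transcripts 0 of the 9 were called, where 0.956% of those of all genes were higher and 0.116% lower. All 9 had a higher value in AS, and so did most transcripts of other genes, whose median ratio was 1.22 over 9662 canonical transcripts. Intervals given here are exact 95% intervals of the ratio and cover counting error only. The TIA1 canonical transcript went from 519 to 598 reads, a ratio of 1.36 (1.205 to 1.53) after the difference in depth. That of ATXN2 went from 640 to 726 reads, a ratio of 1.34 (1.2001 to 1.49). USP10 was at 1.25 (1.13 to 1.39) and CAPRIN1 at 1.24 (1.18 to 1.30). The intervals of these 4 transcripts hold the median ratio.

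The other 5 canonical transcripts had ratios below the median. UBAP2L was at 1.14 (1.08 to 1.2006), YBX1 at 1.12 (1.07 to 1.18) and PABPC1, with 5902 and 5578 reads, at 1.11 (1.07 to 1.16). ATXN2L was at 1.104 (1.02 to 1.199). For these 4 the upper bound is under the median ratio. TIAL1, at 1.08 (0.95 to 1.23), is the only one of the 9 whose interval holds 1.

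**Figure D3:**
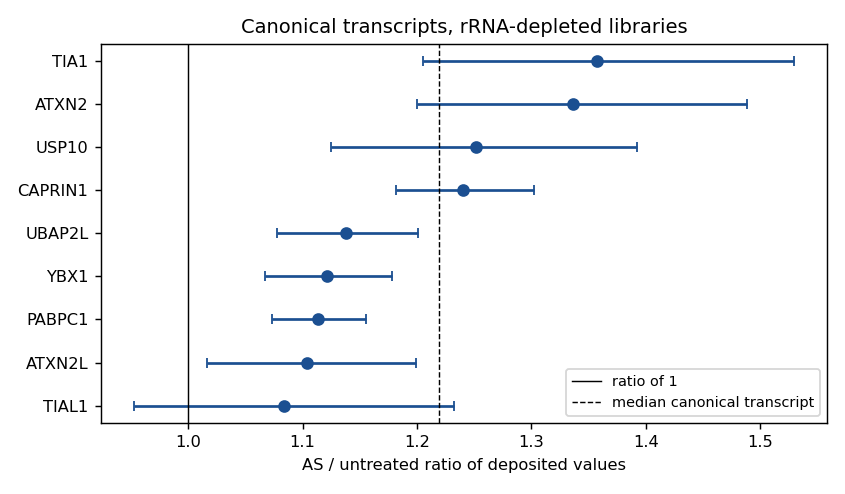
Ratio of the deposited value in AS-treated to that in untreated cells for the canonical transcript of each of the 9 genes, with exact 95% intervals for counting error. The solid line is a ratio of 1 and the dashed line the median ratio of 1.22; the intervals of UBAP2L, YBX1, PABPC1 and ATXN2L end left of the dashed line.

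With at least 20 reads in both libraries, 179 of the 202 transcripts could be read, and their ratios ran from 0.77 in ATXN2L to 2.0 in TIA1, with a median of 1.13. The 2 transcripts with the largest mean value were read for each gene. In TIA1 they were ENST00000454815.6 at a ratio of 1.499 (1.16 to 1.93) and ENST00000482876.5, which has no defined coding sequence, with 52 and 88 reads, at 1.99 (1.40 to 2.87). In ATXN2 they were ENST00000542287.6 at 1.39 (1.24 to 1.56) and ENST00000389154.7 at 1.32 (1.13 to 1.54). In CAPRIN1 they were ENST00000529307.1 at 1.27 (1.19 to 1.35) and ENST00000532820.5 at 1.25 (1.19 to 1.32). USP10 had ENST00000562743.5 at 1.32 (1.08 to 1.62) and ENST00000570191.5 at 1.28 (1.14 to 1.44).

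The leading transcripts of the other 5 genes had lower ratios. All lay under 1.19, the median ratio over all transcripts with a value above 1 in both libraries. In UBAP2L, ENST00000343815.10 and ENST00000613315.4 were both at 1.14. In ATXN2L, ENST00000564304.5 was at 1.14 and ENST00000570200.5 at 1.12. In TIAL1, the retained-intron forms ENST00000470781.5 and ENST00000489822.5 were at 1.15 (0.99 to 1.34) and 1.09 (0.95 to 1.26). In YBX1, ENST00000436427.1 and ENST00000467957.1 were both at 1.12. In PABPC1, the retained-intron form ENST00000518716.1 was at 1.14 (1.07 to 1.22) and ENST00000523636.5, a nonsense-mediated decay form, at 1.05 (0.98 to 1.12).

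eCLIP addresses how far G3BP1 and G3BP2 touched these RNAs. The deposited value of a gene is log10 of a whole number plus 1. It is given as a rounded log, so the number recovered from it is approximate. Here that number was scaled to the mean library total, and log10 of the scaled number plus 1 is called the eCLIP value. It is a sum over a gene and grows with gene length, and which processing steps it includes is not stated. The input libraries were not analysed here, so a value is not set against the RNA present. All 9 genes had a number above 0 in all 8 libraries. A number above 0 is common, since 19259 of the 19942 genes had one in at least 2 libraries.

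ATXN2 had the highest eCLIP value of the 9 in every library. For G3BP1 it was 3.90 and 4.15 without AS and 4.0 and 4.19 with AS. For G3BP2 it was 3.90 and 4.10 without AS and 3.93 and 4.03 with AS. Per kb of span, ATXN2 had a mean scaled number of 69.9, where the median of all genes was 6.71, and its percentile among genes was 99.1 to 99.7 over the 8 libraries. Its poly-A level was among the lowest of the 9, at 21.5 TPM in siCtrl.

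TIA1 and USP10 came next per kb, at means of 24.6 and 22.4. Both had the highest values after ATXN2 also as sums. The other 6 had means per kb between 8.52 in YBX1 and 15.5 in ATXN2L, above the median of all genes. YBX1, the most abundant mRNA of the 9, had the lowest number per kb. Among genes of like span (1 of 20 bins of equal gene number), ATXN2 was at the 99.5th percentile of the mean scaled number, TIA1 at the 93.7th, USP10 at the 91.4th, and PABPC1 at the 59.5th as the lowest. Across the 9 genes the mean scaled number ordered with span (rho = 0.93) and with the palindromic motif count in the span (rho = 0.95). These 2 features share gene length. With both numbers taken per kb of span, rho was 0.18 over 19892 genes. Over the 14838 genes of at least 10 kb it was 0.049.

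**Figure D4:**
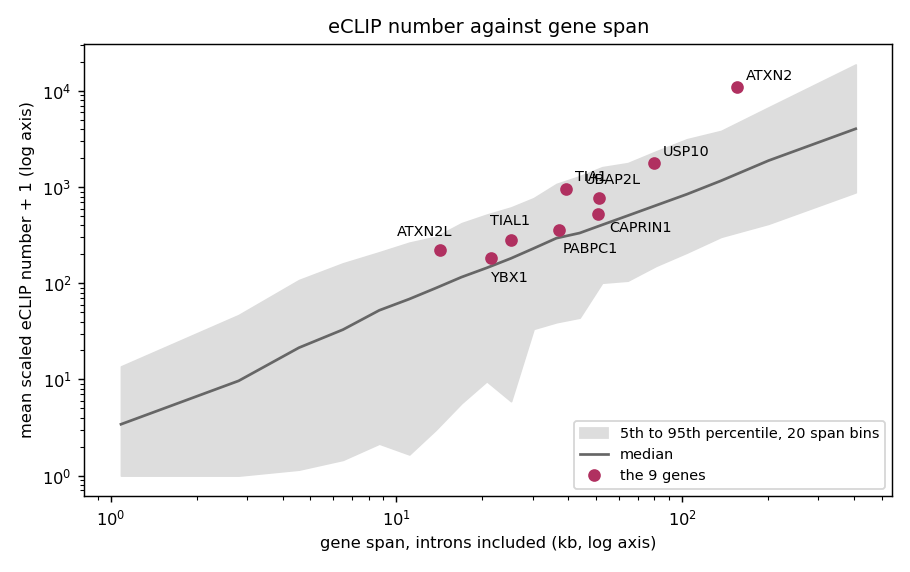
Mean scaled eCLIP number + 1 over 8 libraries against gene span in kb, both on log axes. The grey band and line give the 5th to 95th percentile and the median of all genes in 20 span bins, and points are the 9 genes; ATXN2 is above the band and the other 8 lie between the median line and its upper edge.

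AS changed none of the 9 past the test. limma over all 8 libraries, with Benjamini-Hochberg adjustment over 19259 genes, called 0 genes (0% of those tested) for G3BP1 and 0 genes for G3BP2. At an unadjusted p under 0.05, it gave 372 genes higher and 404 lower for G3BP1, and 278 higher and 247 (1.28%) lower for G3BP2.

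TIA1 was the one member whose AS libraries all lay below its untreated libraries with both antibodies. For G3BP1 its eCLIP value was 3.01 and 3.24 without AS and 2.82 and 2.94 with AS. For G3BP2 it was 2.97 and 3.08 without AS and 2.82 and 2.82 with AS. Such a separation downward was seen in 2.91% of all genes and upward in 2.62%. The log10 change was -0.24 (SE 0.0875) for G3BP1, with an unadjusted limma p of 0.0275 and an adjusted p of 0.95. Such an unadjusted p with a lower value was reached by 2.1% of genes. For G3BP2 the change was -0.20, with an unadjusted limma p of 0.0541 and an adjusted p of 1. The adjusted p stayed between 0.333 and 1 over the alternative settings for G3BP1. TIA1 values in rRNA-depleted RNA were higher after AS, at the ratio of 1.36 given above, from 1 library each. Its interval of 1.205 to 1.53 holds the median ratio of canonical transcripts, 1.22, so no rise beyond the general shift is shown.

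USP10 had changes of opposite sign with the 2 antibodies, neither past the test. For G3BP2 it was 3.22 and 3.12 without AS and 3.32 and 3.38 with AS, a log10 change of 0.18. Both AS libraries lay above both untreated ones, as in 14.6% of all genes. For G3BP1 it was 3.24 and 3.34 without AS and 3.32 and 2.93 with AS, a change of -0.16, and the groups overlapped. The negative sign rests on AS replicate 2, and without it the change was 0.031. The interaction of treatment and protein was 0.35 (SE 0.165), with an unadjusted limma p of 0.0749 and an adjusted p of 1. No gene passed that interaction after adjustment, with 60 genes above 0 and 84 (0.436%) below at an unadjusted p under 0.05. For this interaction alone, USP10 had the smallest unadjusted p of the 9.

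TIAL1 was lower after AS with the G3BP2 antibody alone, by less than could be called. For G3BP2 it was 2.47 and 2.46 without AS and 2.43 and 2.17 with AS, a log10 change of -0.16 without overlap, as in 15.4% of all genes. For G3BP1 it was 2.54 and 2.45 without AS and 2.47 and 2.54 with AS, a change of 0.01.

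PABPC1 was the member with the poorest agreement between replicates. For G3BP1 it was 1.71 and 2.71 without AS and 2.82 and 1.59 with AS. For G3BP2 it was 2.16 and 2.79 without AS and 2.87 and 2.14 with AS. The replicate gap of 1.004 in untreated G3BP1 libraries compares with a median of 0.12 over genes and lies at the 96.8th percentile. In both antibodies the replicate that was high was the second in untreated and the first in AS-treated cells. The AS change was -0.01 (SE 0.503) for G3BP1 and 0.03 (SE 0.503) for G3BP2, so a several-fold change could not have been detected. Libraries of the 2 proteins with the same number and treatment deviated together over all genes, with correlations of 0.42 in untreated and 0.32 in AS-treated cells.

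CAPRIN1 showed a smaller gap of the same kind. For G3BP1 it was 2.83 and 2.38 without AS and 2.78 and 2.90 with AS, a change of 0.24 (SE 0.18). For G3BP2 it was 2.80 and 2.35 without AS and 2.73 and 2.68 with AS, a change of 0.13 (SE 0.18). The second untreated replicate was the low one with both antibodies, and the groups overlapped.

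The other 3 members and ATXN2 overlapped between treatments in both proteins. UBAP2L ran from 2.76 to 3.06 over the 8 libraries, with changes of 0.13 for G3BP1 and 0.05 for G3BP2. ATXN2L ran from 1.98 to 2.57, with changes of -0.18 and -0.16. YBX1 ran from 1.95 to 2.54, with changes of -0.16 and 0.04. ATXN2 changed by 0.07 and -0.02.

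**Figure D5:**
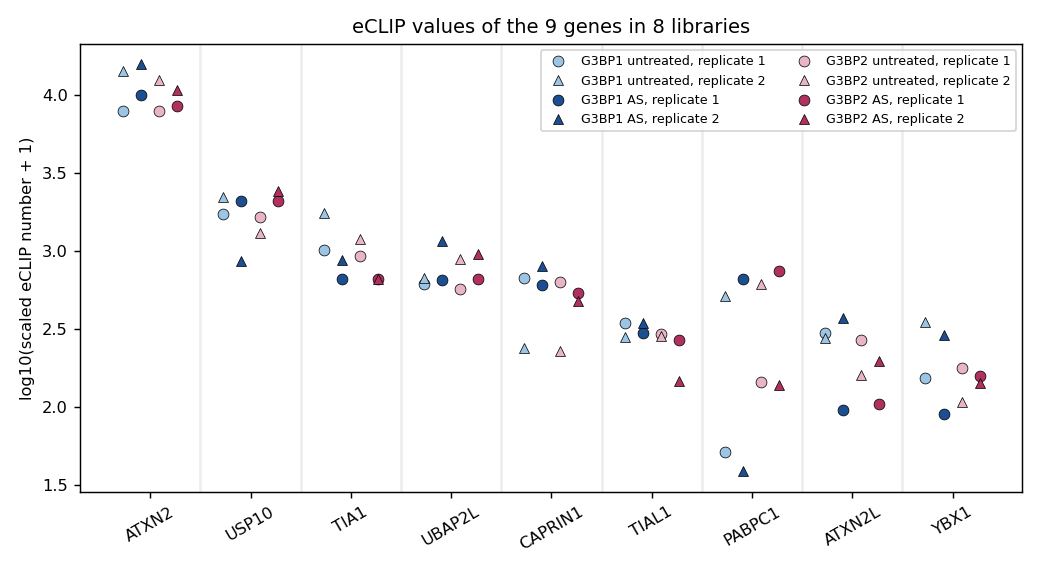
eCLIP value, log10 of the scaled number plus 1, of the 9 genes in each of the 8 libraries, with circles for replicate 1 and triangles for replicate 2 and a colour for each protein and treatment. ATXN2 lies between 3.90 and 4.19 in all libraries, the dark (AS) points of TIA1 lie below its pale (untreated) points, and the replicates of PABPC1 lie far apart.

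G3BP2 and G3BP1 did not differ past the test in any of the 9. In untreated cells limma called 0 genes, with 80 higher and 79 (0.41%) lower at an unadjusted p under 0.05, and in AS-treated cells 0 genes, with 143 higher and 94 (0.488%) lower. The members' log10 differences of G3BP2 from G3BP1 ran from -0.22 in YBX1 to 0.26 in PABPC1 in untreated cells and from -0.21 in TIAL1 to 0.30 in PABPC1 in AS-treated cells, with SEs between 0.0875 in TIA1 and 0.503 in PABPC1. Libraries of the same number and treatment deviated together but were not paired in this test. It may therefore have missed differences between the proteins.

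By the pattern of log2(TPM + 1) over the 5 TPM libraries, the gene nearest to YBX1 was OST4, at a Euclidean distance of 0.21. OST4 was at 1400.1 TPM in Total and 133 TPM in SG. The nearest to UBAP2L was ISL1 (0.21), to USP10 VPS37B (0.18), to TIAL1 SMTN (0.19), to CAPRIN1 ATP13A1 (0.22), to ATXN2L HNRNPU (0.31), to TIA1 CHKB (0.35) and to ATXN2 API5 (0.42). PABPC1 had the most distant nearest gene, HDGF at 0.64, which was at 532 TPM in Total and 659 TPM in SG.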

How the data were processed

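The members and gene lists were chosen with earlier results of these data known. For eCLIP, the authors used fastp, STAR and CLIPper and deposited log10 values, each log10 of a whole number plus 1, per gene and library. The authors deposited TPM for protein-coding genes after HISAT2 (2.1.0 per the submitters' processing notes, with build hg38) and StringTie. The rRNA-depleted values, named TPM by the authors, were treated as a signal, since the deposited columns sum to more than TPM can. Dividing by their smallest steps returned whole reads within 0.05.

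Columns were assigned to samples by name. The eCLIP numbers were scaled to the mean total and compared with limma 3.58.1 in R 4.3.3 (trend, 4 group means, genes above 0 in at least 2 of 8 libraries, Benjamini-Hochberg threshold 0.05). The design had listed this test for values on a log scale. Folds of TPM or signal used a pseudocount of 1, thresholds of 2 and 0.5 and a minimum of 1. Folds on this scale understate low genes. Lengths, canonical transcripts and motif sites came from GENCODE release 44 and the GRCh38 genome, another release than the authors', in which 19910 of 19942 gene rows and 88.5% of transcripts matched. Overlapping genes and paralogs can exchange reads. Tables were made with pandas 2.3.3, numpy 2.4.6 and scipy 1.17.1 and drawn with matplotlib 3.10.9 in Python 3.11.15. The eCLIP fit and the fold rule were tried on simulated data. The simulated eCLIP libraries were drawn independently, without the deviations that libraries of both proteins shared. That run cannot show how the eCLIP fit behaves with such deviations. Named were all 9 genes, their 2 leading transcripts, paralogs, the 3 highest and 3 lowest of the other SG protein mRNAs above 10 TPM, those called in a knockdown, and the gene nearest in pattern. TPT1, NACA and EIF4B were named after their values were seen. SMInput libraries were not analysed here. Some motif sites are not reported here.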

Additional observations from a re-analysis of the deposited data

How the results depend on the processing

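With 1 library per RNA-seq condition and 2 per eCLIP group, the fold calls have no error of their own and the eCLIP test can show large changes only. After division by the median ratio, SG against Total gave 4505 genes higher and 3271 lower (8528 and 1282 as reported) and 0 members higher. CAPRIN1 (-0.69), PABPC1 (-0.56) and TIAL1 (-0.11) then turned negative. A fold of 1.5 for SG against Total gave 9633 of 13560 genes higher and 1811 lower, with 8 members higher in place of 6. For siG3BP1 (138 higher, 243 lower) a pseudocount of 0.1 gave 289 and 425, a fold of 1.5 gave 455 and 765, and a minimum of 10 TPM gave 40 and 89. For siG3BP2 (150 and 353) these gave 273 and 638, 418 and 1186, and 58 and 125. No member was called in either knockdown against siCtrl under these settings. In siG3BP2 against siG3BP1 a fold of 1.5 called 1 member, ATXN2, as higher, where 453 of 12179 genes were. For AS against untreated (1517 and 473 transcripts, 1 and 0 members) a pseudocount of 0.1 gave 5947 and 1768 with 3 and 3 members, a fold of 1.5 gave 10566 and 2003 with 6 and 3, division by the median ratio gave 726 higher and 640 lower with 1 member higher and 1 lower, a minimum of 10 gave 183 and 40 with 0 members, gene sums gave 670 and 209 with 0 members, and canonical transcripts, added after seeing the data, gave 99 and 12 with 0 members. In eCLIP, the replicate numbers were not taken as pairs, since each comparison has 2 (deviation correlations of 0.15 for G3BP1 and 0.06 for G3BP2 across treatment). Between the proteins these correlations were 0.42 in untreated and 0.32 in AS-treated cells. Pairing within a treatment was not fitted, since the replicate block is shared by both treatments. The SEs for G3BP2 against G3BP1 and for the interaction may therefore hold spread common to both proteins. The replicate block changed no count on scaled values, and on values as deposited it gave 2 genes for AS in G3BP1, 2 in G3BP2 and 1 for G3BP2 against G3BP1 in AS. Leaving out each eCLIP library in turn gave 0 to 204 genes for AS in G3BP1, 0 to 24 for the interaction and 0 to 178 for G3BP2 against G3BP1 in AS. The high values, 204, 24 and 178, came without G3BP1 AS replicate 1, and without G3BP1 untreated replicate 1 AS in G3BP1 gave 2. No member passed in any of the 14 alternatives of either AS comparison (lowest adjusted limma p 0.103, USP10 in G3BP1). Several members changed sign, none of them called: on values as deposited, with and without the block, TIAL1 (-0.10) and ATXN2 (-0.040) in G3BP1 and UBAP2L (-0.025), PABPC1 (-0.040) and YBX1 (-0.037) in G3BP2, and PABPC1 in G3BP1 with a pseudocount of 10 (0.0018). Without single libraries, the log10 change in G3BP1 ran from -0.36 to 0.031 for USP10, -0.031 to 0.055 for TIAL1, -0.056 to 0.20 for ATXN2, -0.48 to 0.11 for ATXN2L, -0.62 to 0.61 for PABPC1 and -0.41 to 0.10 for YBX1, and in G3BP2 from -0.093 to 0.35 for CAPRIN1, -0.047 to 0.14 for UBAP2L, -0.12 to 0.083 for ATXN2, -0.33 to 0.40 for PABPC1 and -0.073 to 0.14 for YBX1. TIA1 stayed below 0 in every alternative, from -0.36 to -0.12 in G3BP1 and from -0.28 to -0.15 in G3BP2. The cause of these changes was not tested.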
